A study of Mus musculus with 3 samples.

Results

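Collagen genes were examined in ATDC5 cells, a mouse chondroprogenitor line of teratocarcinoma origin, after shRNA knockdown (KD) of *Tet1*. A probe set was taken as a collagen when the authors' comparison table gave it a gene name of the form Col, number, a, number. By this rule there were 4 probe sets for 4 genes, *Col2a1*, *Col11a1*, *Col10a1* and *Col4a2*, among the 1330 named probe sets of that table and the 35512 probe sets on each array. The cells carried the wild-type genotype label and a lentiviral shRNA transduced at day 0, were kept with insulin, transferrin and selenium, and were harvested on day 15. Of the 3 arrays, 1 came from cells with the nontarget (NT) shRNA, 1 from cells with Tet1sh1 (hairpin 1) and 1 from cells with Tet1sh2 (hairpin 2). Per the methods of the study, transduced cells were selected with puromycin and then differentiated, and no cloning step is described.

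The comparison table listed a probe set only when the authors had found it to differ between NT and *Tet1* KD on these same arrays. The collagens described here were therefore chosen, in effect, for their difference, and what follows does not describe the collagens of the array in general. Gene lists held 45 collagen genes, of which 40 were not named and were not analysed here. The lists were written from textbook knowledge, but with earlier results of these data known. NT has no replicate error, being a single array, and precision is limited by how few arrays there are. The p-values below rest on the spread between the 2 *Tet1* KD arrays, pooled across probe sets more than taken from each gene. They therefore say little about how well the hairpins agreed on a single gene. In that spread hairpin, culture and technical differences cannot be told apart.

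Collagens are trimeric proteins of the extracellular matrix whose chains wind into a triple helix through repeats of glycine followed by a pair of other residues, often proline and hydroxyproline. In cartilage, type II collagen forms the fibrils and type XI collagen lies within them and limits their width, while type I predominates in skin, bone and tendon. Type X collagen is a short-chain, network-forming collagen made by chondrocytes once they become hypertrophic in the growth plate. Type IV collagen forms the sheet of basement membranes. SOX9 is the transcription factor best known for driving the cartilage collagens, and TET1 oxidizes 5-methylcytosine in DNA.

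The sequence before the annotated start is shown for the hypertrophic collagen gene and for one of the fibril genes, because these promoters differ in their letters although the intensity of both genes was lower under both hairpins. Sequences are from RefSeq, build GRCm38.p6, plus strand, 5′ to 3′, and positions are counted back from the start site of the RefSeq window. Capitals mark matches, on either strand, to the letter motifs TATAAA, the TATA box, ACAAAG or alternatively ACAATG, core letters of HMG-box factors such as SOX9, TGTGGT, the core of Runt-domain factors, GGGCGG, the GC box, and CCAAT, the CCAAT box. The *Col10a1* run lies at chr10:34389731-34389980, and the *Col11a1* run at chr3:114030290-114030478, which stops where the annotated gene extent begins, its last base 62 bases before the start site of the window.
Col10a1: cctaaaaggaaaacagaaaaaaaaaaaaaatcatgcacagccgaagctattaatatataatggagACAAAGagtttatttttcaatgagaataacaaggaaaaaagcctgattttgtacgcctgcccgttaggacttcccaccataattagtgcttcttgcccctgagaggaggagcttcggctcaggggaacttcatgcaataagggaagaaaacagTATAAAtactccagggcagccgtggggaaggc
Col11a1: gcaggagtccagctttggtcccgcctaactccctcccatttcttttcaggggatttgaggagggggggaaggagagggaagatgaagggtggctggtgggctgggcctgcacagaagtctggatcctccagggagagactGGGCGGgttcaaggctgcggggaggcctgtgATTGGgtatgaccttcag
*Col10a1* had TATAAA on the plus strand 32 bases before the start and ACAAAG 185 bases before it. *Col11a1* had neither. It had GGGCGG 110 and 19 bases before the start, the nearer match beyond the printed run, and CCAAT on the minus strand, printed as ATTGG, 79 bases before it. TGTGGT was found in neither window. The letters TATAAA were found in 13.6% of all 32851 RefSeq windows of 300 bases, the HMG-box letters in 28.6%, TGTGGT in 16.8%, GGGCGG in 35.7% and CCAAT in 37.4%. Matches of the different motifs did not overlap (0 overlaps). The GC content of the window was 44.3% for *Col10a1* and 62.3% for *Col11a1*, against a median of 52.7% over all windows. *Col4a2* had the most GC-rich window of the 3 collagens in the RefSeq table, at 73.7%, with GGGCGG 192 and 48 bases before and 8 bases after the start and CCAAT 32 bases before it. Its window shared 78 bases with that of *Col4a1*, the neighbouring gene on the opposite strand, since this pair of type IV collagen genes is arranged head to head. A match is a description of letters and was not tested as a binding site.

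Intensities are the authors' normalized linear values in arbitrary units. A log2 fold is the mean log2 intensity of both KD arrays minus that of NT, and a gene is said to rise or fall where limma, a linear model that borrows variance across probe sets, gave an adjusted p under 0.05 over all probe sets fitted. Arrays of this design were simulated from the fitted variances, with independent noise and changes equally likely up or down. The true changes that were called there all had the right direction. Unchanged probe sets made up a larger share of the simulated calls than this threshold allows. The calls here are therefore taken as less certain than the adjusted p states, but their own false share was not tested. *Tet1* itself, the target of both hairpins, was lower in both KD arrays on each of its 3 named probe sets. Their log2 folds were -1.06, -1.01 and -1.28, none of which passed the limma test (adjusted p from 0.133 to 0.186). Naming required a difference for *Tet1* too, so a *Tet1* probe set without one could not be seen. Of the 7 chondrocyte markers on the lists, 3 were named, *Col2a1*, *Acan* and *Hapln1*. Their summed intensity was 8665 units in NT, 4914 of them from the collagen *Col2a1* itself, and 1917 to 3212 units in the KD arrays. None of the 3 was at 0 in any array. Naming required a difference for these markers too, so nothing is read from the sum. Over all probe sets the median intensity lay between 264 and 305 units in the 3 arrays.

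Among the named collagens, *Col2a1* of cartilage fibrils and *Col10a1* of hypertrophic cartilage fell after *Tet1* KD. *Col10a1* fell by 2.05 ± 0.37 (SE) and *Col2a1* by 1.45 ± 0.30 (SE) on the log2 scale. *Col11a1* had a log2 fold of -1.17 ± 0.30 (SE) and *Col4a2* one of 0.96 ± 0.32 (SE), and neither passed the limma test. Whether the folds of the collagens differ from each other was not tested. Fewer cells of a type and less RNA per cell cannot be told apart in these bulk samples. All 4 collagens kept 1 direction under both hairpins, 3 lower and 1 higher. In limma 2 of the 4 passed as lower and 0 as higher. Over all 27311 probe sets fitted, 0.388% passed as lower and 1.36% as higher. These shares depend on which probe sets are fitted. With identifiers below the lowest named one left out, 477 of 23912 passed as lower and 785 as higher. Because naming required a difference on these arrays, nothing is read from the collagens' share, and the same holds for the other gene lists below. Among the 1194 named genes that were fitted, 7.12% passed as lower and 25.8% as higher. The median log2 fold of the 4 probe sets was -1.31, beside -0.12 over all fitted probe sets and 0.85 over all 1194 named genes that were fitted.

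**Figure D1:**
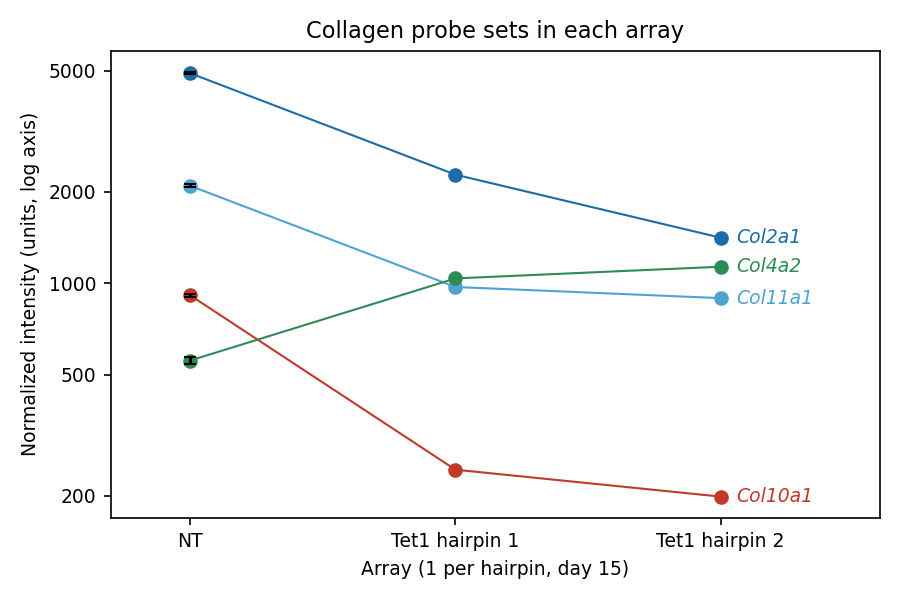
Normalized intensity (units, log axis) of the 4 collagen probe sets in the NT array and in the arrays of Tet1 hairpins 1 and 2, with lines joining the values of 1 probe set. Bars on the NT points are the authors' model-based standard error across probes, not replicate error. Col2a1, Col11a1 and Col10a1 lie lower under both hairpins than in NT, and Col4a2 lies higher.

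*Col2a1*, which encodes the chain of the type II collagen homotrimer and so most of the collagen of hyaline cartilage, read 4914 units in the NT array, 2279 units in that of hairpin 1 and 1414 units in that of hairpin 2. Both KD arrays were below NT, and hairpin 2 was below hairpin 1. The remaining signal was 46.4% of NT under hairpin 1 and 28.8% under hairpin 2. The standard error that the authors' model gave the NT value was 46.8 units, or 0.952% of it, which covers disagreement among probes and not culture. The mean of the KD arrays was 1847 ± 612 units (SD, n = 2), and the limma adjusted p was 0.0197. The log2 difference between the hairpins, -0.69, was larger in size than that of 88.4% of fitted probe sets, so the hairpins disagreed more on *Col2a1* than on most probe sets. *Col2a1* stood at the percentile 94.9 of all probe sets in NT, 86.5 under hairpin 1 and 78.9 under hairpin 2, and thus stayed among the brighter probe sets in all 3 arrays. The limma call was lost after quantile normalization (adjusted p = 0.121), after centring each array on its median (0.104), without an intensity trend in the variance (0.293) and without a filter on dim probe sets (0.776). Over the 7 alternative fits the limma adjusted p ran from 7.6e-06 to 0.776, and 3 of them passed. The lowest value came with identifiers below the lowest named one left out.

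*Col11a1*, the alpha 1 chain of the type XI collagen that nucleates and limits cartilage fibrils, went from 2094 units with the NT shRNA to 973 units with hairpin 1 and 894 units with hairpin 2. The KD arrays lay close together, both below NT, at 46.5% and 42.7% of the NT value. Under hairpin 1 the log2 difference from NT was -1.11, the same to 2 decimals as that of *Col2a1*. Under hairpin 2 it was -1.23, against -1.80 for *Col2a1*. The log2 difference between the hairpins was -0.12, larger in size than that of 24.9% of fitted probe sets. The limma adjusted p was 0.0724. It passed when the fit was restricted to probe sets averaging 200 units or more (adjusted p = 0.0269) or to identifiers not below the lowest named one (0.00641). The model standard error of the NT value was 22.1 units. No type IX collagen gene and no *Col11a2*, whose product joins the type XI trimer, was named, and with 5 of the 7 genes on the cartilage fibril list not analysed here, the trimer cannot be followed chain by chain.

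*Col10a1*, the single gene of type X collagen and the classic marker of hypertrophic chondrocytes, had an intensity of 913 units with the NT shRNA, 244 units with hairpin 1 and 199 units with hairpin 2. Both KD arrays lay far below NT, 3.75-fold under hairpin 1 and 4.59-fold under hairpin 2. This was the largest relative difference among the 4 collagens under either hairpin. The log2 difference between hairpins was -0.29, near the middle of all fitted probe sets (percentile 54.5). The limma adjusted p was 0.00874, and it stayed under 0.05 after quantile normalization (0.0435) and after median centring (0.0276), but not without the intensity trend (0.0688) or without a filter (0.758). The intensity went from the percentile 72.0 of the NT array to 46.6 and 42.4 under hairpins 1 and 2, from the upper part of the array to just below its middle. In the RefSeq annotation *Col10a1* overlaps *Nt5dc1*, which was not named in the table and was not analysed here.

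*Col4a2*, which encodes the chain that joins the product of *Col4a1* in the most widespread type IV collagen of basement membranes, gave 558 units on the NT array and 1039 and 1135 units on those of hairpins 1 and 2. Both KD arrays were above NT, 1.86-fold and 2.04-fold, and the hairpins differed by 0.13 on the log2 scale. The difference of 529 units between the KD mean and NT was the smallest of the 4 collagens. The limma adjusted p was 0.198, and it lay between 0.0693 and 0.758 over the 7 alternative fits, so the call did not pass in any of them. *Col4a1* was not named and was not analysed here.

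A further collagen was listed under the provisional name EG665033, which the RefSeq annotation gives as *Col6a5*, a chain of the type VI collagen family of beaded filaments. It falls outside the naming rule and was picked out after its values were seen. Its intensity was 144 units with the NT shRNA, 408 units with hairpin 1 and 328 units with hairpin 2, so both KD arrays were above NT on a dim probe set. At a log2 fold of 1.34 ± 0.39 (SE) it missed the limma threshold (adjusted p = 0.119). With it, 5 of the 45 listed collagens were named. The interstitial fibril collagens (types I, III, V and XXIV), the fibril-associated, transmembrane and type VIII collagens and types XXVI and XXVIII made up 5 classes with 22 genes and 0 named members, so whether other fibrillar collagens differed cannot be read from these names.

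**Figure D2:**
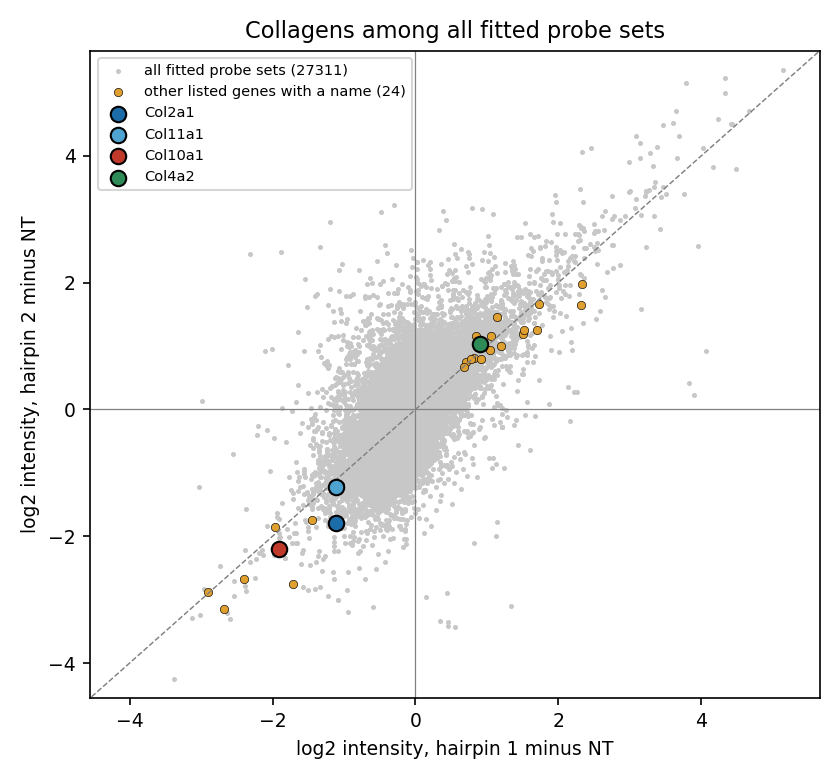
Log2 intensity difference from NT under hairpin 1 (horizontal axis) and hairpin 2 (vertical axis) for the 27311 fitted probe sets (grey), 24 other genes of the lists (orange) and the 4 collagens (large points). The dashed line marks equal differences. Col11a1 and Col4a2 lie near the line and Col2a1 lies below it, at -1.11 and -1.80.

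The genes with the most similar pair of log2 differences were taken for each collagen from the other 1192 named genes, by Euclidean distance over hairpins 1 and 2. This likeness rests on 3 arrays that share the NT array and is given as a description. Nearest to *Col2a1* were *H2bc18* (listed as Hist2h2bb), *Gdpd3* and *Gm6100* (listed as EG619780), at distances of 0.013, 0.065 and 0.11 log2 units. Nearest to *Col11a1* were *Narf*, *Cr1l* and *Itga10*, at 0.0072, 0.040 and 0.053, the last of which encodes an integrin chain that binds collagen. Nearest to *Col10a1* were *Snhg1*, *Serpinb9b* and *Prss35*, at 0.077, 0.086 and 0.12. Nearest to *Col4a2* were *Gorab* (listed as Scyl1bp1), *Magi3* and *Tnfaip3*, at 0.013, 0.027 and 0.029.

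Of 34 genes whose products make and process procollagen, 5 were named. All 5 measured higher under both hairpins, and 2 of them, *Adamts2* and *Creb3l1*, rose in the limma test, where 25.8% of all named genes and 1.36% of all fitted probe sets passed as higher. Their median log2 fold was 1.11, against 0.85 over all named genes and -0.12 over all fitted probe sets. *Adamts2*, the protease that removes the amino-terminal propeptide of fibrillar procollagens, rose from 1135 units to 3258 units with hairpin 1 and 2704 units with hairpin 2 (limma adjusted p = 0.0141). *Creb3l1*, a transcription factor of the endoplasmic reticulum that drives collagen genes in bone, rose from 1802 to 3963 and 4950 units (limma adjusted p = 0.0118). Neither passed once the arrays were quantile normalized (limma adjusted p = 0.0756 and 0.0689), although the log2 folds went only from 1.39 to 1.36 for *Adamts2* and from 1.30 to 1.29 for *Creb3l1*. In both genes the KD arrays were above NT, with hairpin 1 the higher for *Adamts2* and hairpin 2 the higher for *Creb3l1*.

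The other 3 named genes of this list did not pass. *P4ha3*, a catalytic subunit of prolyl 4-hydroxylase, which makes the hydroxyproline that stabilizes the triple helix, measured 1224 units in NT and 2536 and 2740 units under hairpins 1 and 2 (limma adjusted p = 0.0531). *P3h2* (listed as Leprel1), a prolyl 3-hydroxylase, measured 1824, 2977 and 3067 units in the same order, with the KD arrays close together. *Adamts3*, the propeptide protease with a known preference for type II procollagen, had 7 named probe sets, each higher in both KD arrays. Since naming required a difference, any *Adamts3* probe set without one could not be seen, and the agreement of the 7 is a description. The log2 folds of the 7 ran from 0.84 to 1.35, with limma adjusted p from 0.106 to 0.432. Its brightest probe set measured 262 units in NT and 491 and 522 units under the hairpins.

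**Figure D3:**
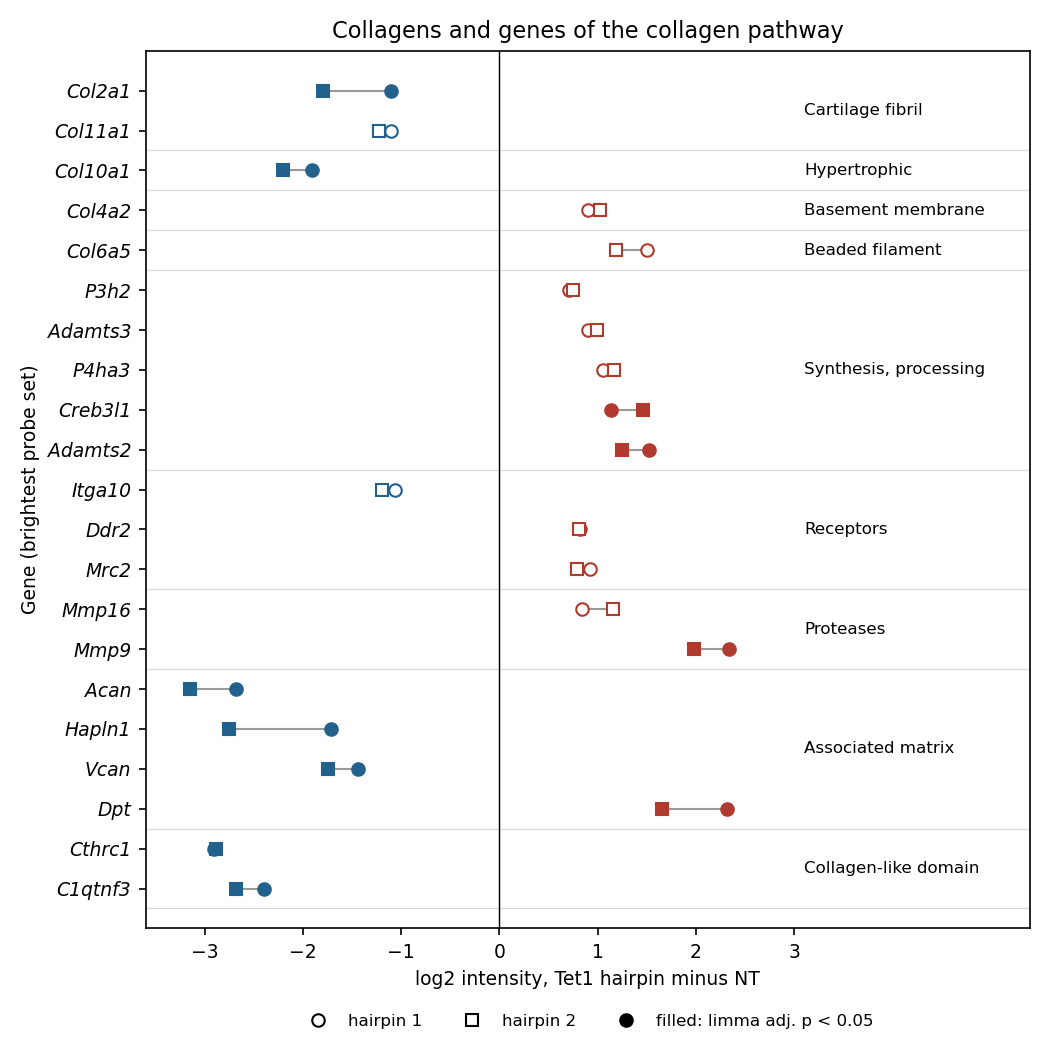
Log2 intensity difference from NT under hairpin 1 (circles) and hairpin 2 (squares) for each collagen and each named gene of the collagen pathway lists, by class. Filled symbols passed limma (adjusted p under 0.05), red marks higher and blue lower. The named synthesis and processing genes lie above 0 under both hairpins, and Itga10, Acan, Hapln1, Vcan, Cthrc1 and C1qtnf3 lie below 0 with the cartilage collagens.

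Of 10 receptors for collagen 3 were named, with a median log2 fold of 0.81, and none passed limma in the fit as reported. *Itga10*, the integrin alpha chain typical of chondrocytes, read 615 units with the NT shRNA, 294.7 units with hairpin 1 and 268 units with hairpin 2 (limma adjusted p = 0.179). *Ddr2*, a receptor tyrosine kinase activated by fibrillar collagen, measured 3349 units in NT and 5921 and 5861 units under the hairpins (limma adjusted p = 0.0724). *Mrc2*, which takes up collagen fragments for degradation, measured 3117 units in NT and 5892 and 5387 units under the hairpins (limma adjusted p = 0.0648). *Mrc2* passed as higher after median centring (adjusted p = 0.0470), and both *Mrc2* and *Ddr2* passed with the filter of 200 units (0.0223 and 0.0279) and with identifiers from the lowest named one (0.00648 and 0.00941). In each of the 3 genes both KD arrays lay on the same side of NT. Among 11 collagenases, gelatinases and their inhibitors, 2 were named, with a median log2 fold of 1.58. *Mmp9*, a gelatinase that cleaves denatured collagen, rose from 294 to 1482 and 1159 units (limma adjusted p = 0.00255), and *Mmp16*, a membrane-bound matrix metalloproteinase, read 836 units with the NT shRNA and 1498 and 1865 units with the hairpins without passing (limma adjusted p = 0.141).

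Of 28 proteins that sit with collagen in the matrix 4 were named, 3 of which fell and 1 of which rose, with a median log2 fold of -1.91. Naming required a difference here too. Of all named genes 7.12% passed as lower and 25.8% as higher, against 0.388% and 1.36% of all fitted probe sets. *Acan*, *Hapln1* and *Vcan*, the proteoglycan and link protein genes of cartilage, fell by 2.92, 2.24 and 1.59 on the log2 scale. *Hapln1*, like *Col2a1*, was lower under hairpin 2 than under hairpin 1, at 343 against 709 units, from 2323 units in NT. *Dpt*, which encodes dermatopontin and promotes collagen fibril assembly in skin, rose from 940 to 4671 and 2952 units (limma adjusted p = 0.0021). Of 21 other proteins with a collagen-like domain 2 were named, and both fell, with a median log2 fold of -2.72, beside the same 7.12% of named genes and 0.388% of fitted probe sets. *C1qtnf3*, a secreted member of the C1q and TNF-related family made by growth plate cartilage, fell from 3573 units in NT to 677 and 557 units (limma adjusted p = 0.000355). *Cthrc1*, a secreted protein with a short collagen triple helix repeat, fell from 1267 units to 169 and 172 units (limma adjusted p = 0.000445), nearly the same value under both hairpins. Their log2 differences from NT were larger in size than those of the 4 collagens under both hairpins, a difference that was not tested.

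Of 19 chondrogenic regulators 3 were named, with a median log2 fold of 0.79. *Gdf5*, a growth factor of the forming joint, fell by 1.91 on the log2 scale (limma adjusted p = 0.0184). *Fgfr3*, a receptor that restrains growth plate chondrocytes, measured 361 units in NT and 618 and 626 units under the hairpins, and *Twist1* had a log2 fold of 0.99, neither of which passed (limma adjusted p = 0.407 and 0.143). *Sox9*, *Sox5*, *Sox6* and *Runx2* were not named and were not analysed here.

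Some markers of other skeletal cells were named. Of 8 osteoblast markers 2 were named, *Ibsp* and *Phex*, and both rose, by 1.10 and 1.69 on the log2 scale, with a summed intensity of 2893 units in NT and 6840 to 7601 units in the KD arrays. Of 8 fibroblast markers 3 were named, *Dpt*, *Pdgfra* and *Pdgfrb*, with a summed intensity of 6519 units in NT and 12917 to 15892 units in the KD arrays, and *Dpt* and *Pdgfra* rose in the limma test while *Pdgfrb* did not pass (adjusted p = 0.128). As higher, 25.8% of all named genes and 1.36% of all fitted probe sets passed, and the other 11 of these 16 markers were not named and were not analysed here. None of these markers was at 0 in any array. They too were named only because they differed on these arrays, so nothing is read from their sums. The part of these markers in the collagen differences was not tested. After quantile normalization the calls of *Hapln1*, *Vcan*, *Gdf5*, *Ibsp* and *Pdgfra* were also lost (limma adjusted p = 0.0774, 0.0870, 0.0756, 0.0946 and 0.0675), at log2 folds of -2.21, -1.55, -1.80, 1.07 and 1.45 that lay near those above. In that fit *Acan*, *Cthrc1*, *C1qtnf3*, *Mmp9*, *Dpt* and *Phex* still passed.

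**Figure D4:**
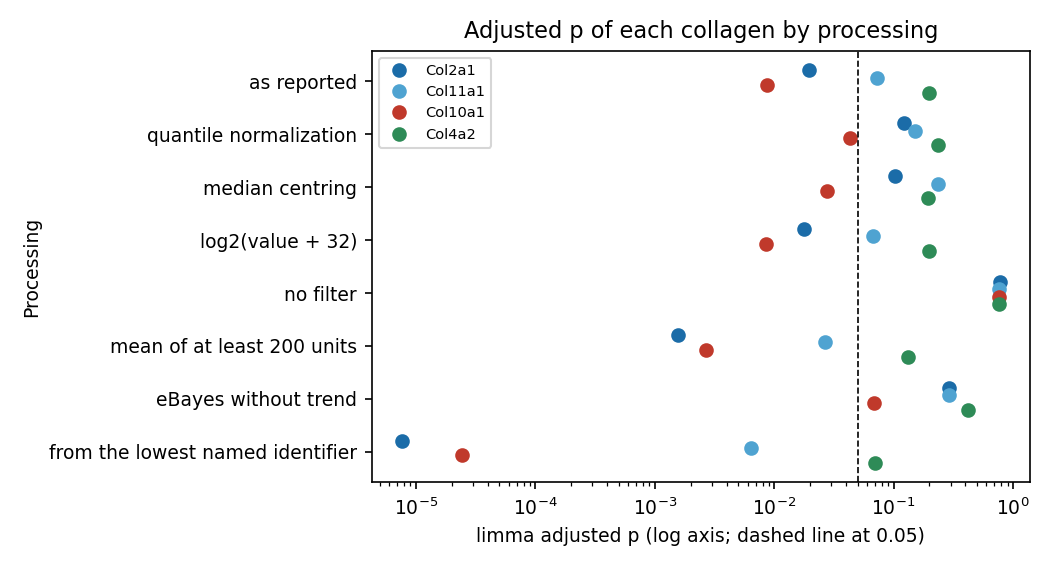
Limma adjusted p (log axis) of the 4 collagens as reported and under 7 alternative fits, with the threshold of 0.05 dashed. Col10a1 lies left of the threshold in the fit as reported and in 5 alternatives, Col2a1 in the fit as reported and in 3 alternatives, while Col4a2 lies right of it in every fit.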

How the data were processed

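Total RNA of 3 cultures was labelled with a whole-transcript kit and hybridized to Affymetrix mouse gene arrays. The intensity values deposited by the authors are linear, model-based values per probe set from dChip. They were normalized between arrays on a selected set of invariant probes, with running median smoothing. The submitters' processing notes name build mm9. The comparison table (lower 90% bound of the fold at least 1.5, difference over 100 units) equalled these intensities, with a largest difference of 0 units. Its columns of fold, bounds and difference are the authors' comparison and were not used.

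Gene names came from that table and were updated through RefSeq (GRCm38.p6): 1084 of 1330 named probe sets matched by accession, 112 by symbol and 75 by older symbol, and 59 kept the listed name. The brightest probe set stood for a gene. Named in the text were the collagens, *Tet1*, every named gene of the lists, and for each collagen the 3 nearest patterns. The lists covered collagens by class, collagen synthesis and processing, receptors, proteases, associated matrix, chondrogenic regulators, collagen-like proteins and markers of chondrocytes, osteoblasts and fibroblasts. Members and lists were chosen with earlier results of these data known.

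Values under 10 units were set to 10. Log2 values of the 27311 probe sets that averaged 100 units or more were fitted in limma 3.58.1 (R 4.3.3, lmFit and eBayes with an intensity trend), both *Tet1* arrays against NT, two-sided, with Benjamini-Hochberg adjustment over all of them and a call below 0.05. Each probe set then has 1 residual degree of freedom. The authors' normalization would hide a change common to most genes. Alternatives changed the scaling, the floor, the filter, the trend and the arrays.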

Additional observations from a re-analysis of the deposited data

How the results depend on the processing

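The direction of the 4 collagens held after quantile normalization and after median centring. A constant added to each value before the log2 step keeps the order of the arrays. Both KD arrays lay on the same side of NT for each collagen, so that fit could not change direction. The other alternative fits changed the filter, the trend or the probe sets included, and not the values. Their log2 folds equal those reported by construction, so these fits could not test direction. Because naming required a difference on these same arrays, the kept direction is a description. *Col10a1* no longer passed without a filter or without an intensity trend (log2 fold -2.05 in both, limma adjusted p = 0.758 and 0.0688). *Col2a1* no longer passed after quantile normalization (-1.46), after median centring (-1.29), without a filter (-1.45, limma adjusted p = 0.776) or without a trend (-1.45). *Col11a1*, at -1.17, passed with a filter of 200 units or with identifiers below the lowest named one left out. Leaving out 1 hairpin gave log2 folds of -2.20 to -1.91 for *Col10a1*, -1.80 to -1.11 for *Col2a1*, -1.23 to -1.11 for *Col11a1* and 0.90 to 1.03 for *Col4a2*, with no test.

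Over all probe sets, 372 passed as higher and 106 as lower (77.8% higher). The counts were 188 and 34 after quantile normalization (84.7% higher), 316 and 37 after median centring (89.5% higher), 87 and 21 without a trend, 785 and 477 with identifiers below the lowest named one left out (62.2% higher), and 553 and 222 with a filter of 200 units. They were 0 and 0 without a filter, where 2229 had an unadjusted limma p under 0.05. Of the 24 other listed genes, 7 passed as higher and 6 as lower, against 14 and 6 with identifiers below the lowest named one left out, 10 and 6 with a filter of 200 units, 8 and 6 on log2(value + 32), 8 and 4 after median centring, 3 and 3 after quantile normalization, 0 and 3 without a trend and 0 and 0 without a filter. Why the calls moved was not tested. The median shift of all fitted probe sets, -0.12 on the log2 scale, went to 0.044 with median centring. No paired analysis was possible because the NT group has 1 array and the sample titles name no pairs.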
